A study of Mus musculus with 6 samples.

Results

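Prune2 and the genes that share its domains were followed across 6 mouse whole-brain expression arrays. The members are 5 genes, Prune2, Prune1, Bnip2, Atcay and Bnipl, through all probe sets annotated to exactly 1 of them. This gave 19 of the 45037 probe sets that are not manufacturer's controls: 4 for Prune2, 3 for Prune1, 8 for Bnip2, 3 for Atcay and 1 for Bnipl. Prune2 was chosen on the heterozygous against wild-type differences themselves, since 1 of its probe sets rose while another was lower, so these are described here without a test. Its relatives were added by name.

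The brains came from male mice at 2 months of age: 3 heterozygous periphilin knockouts (periphilin+/-, with 1 intact copy) and 3 C57BL/6 wild-type littermates. Each brain gave 1 array. The labels do not say which part of the gene was disrupted. Values are the authors' linear intensities. The central 96% of the values averaged 150.001 on every array, with array medians of 31.2 to 34.5, and pairs of arrays correlated at 0.978 to 0.985 (log2 values). The targeted gene, Pphln1, had mean intensities of 319.8 in heterozygous and 299.7 in wild-type brains at 1434822_at and of 37.2 and 52.3 at 1435766_at. Neither Pphln1 probe set passed the test (log2 differences 0.08 and -0.36, limma adjusted p = 0.969 and 0.956). At 1435766_at every heterozygous value (30.6, 44.4 and 36.6) lay below every wild-type value (63.2, 47.3 and 46.3). Genotypes did not overlap at 10.2% of all tested probe sets. At 1434822_at they overlapped. Brain markers were present: all 8 neuronal, 6 astrocyte and 5 measured oligodendrocyte markers lay above the dim limit. Whole brain mixes many cell types, so fewer cells of a type and less RNA per cell cannot be told apart.

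The family is built from a small set of protein modules. Prune2 is a large protein, abundant in the nervous system, whose amino-terminal part resembles the phosphoesterase Prune1 and whose carboxy-terminal part carries a BCH domain, named for BNIP2 and Cdc42GAP homology. BCH domains bind small GTPases and the proteins that control them, and they also bind each other. Bnip2 is the founding BCH protein and acts on Cdc42. Atcay encodes caytaxin, the neuronal BCH protein that is lost in jittery mice and mutated in Cayman ataxia. Bnipl is a further relative of Bnip2. Prune1 has the phosphoesterase module and no BCH domain.

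Prune2 lies on chromosome 19, with 18 RefSeq transcripts in a gene of 268296 bp (assembly GRCm38.p6). Prune1 and Bnipl lie on chromosome 3, next to each other in the order of protein-coding genes. Bnip2 is on chromosome 9, with 5 RefSeq transcripts, and Atcay on chromosome 10, with 2. Where in its transcript each probe set sits is not known from the files. Intensities of different probe sets depend on their probes, so they are not ranked against each other.

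Of the 19 member probe sets, 11 lay above the dim limit, which was the 40th percentile of mean log2 signal and corresponds to an intensity of 18.4. These were 3 of Prune2, 1 of Prune1, 4 of Bnip2 and all 3 of Atcay. The 8 others measured 0.343 to 31.4 on single arrays, and in none of them were the genotypes apart. The nearest to the limit from below was Prune2 1430757_at, with 16.9, 19.9 and 17.5 in heterozygous brains and 18.6, 5.20 and 31.4 in wild-type brains. The nearest from above was Prune2 1439274_at.

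At 1432198_at, the brightest Prune2 probe set, the heterozygous brains measured 2514, 2183 and 2096. The wild-type brains measured 1312, 1319 and 1259 there. The genotypes were far apart, with every heterozygous value above every wild-type value, and the heterozygous values were the more scattered (SD 221 against 32.8, n = 3 each). The mean was 1.73 times as high in heterozygous brains, computed from log2(value + 16), with a log2 difference of 0.79 (SE 0.09). Prune2 was chosen on this contrast, so no test of this probe set is given. Over all probe sets tested, 0.0148% (4 of 27022) passed the adjusted threshold of 0.05. The number passing was 14 without heterozygous 1, 1 without heterozygous 2, and 2 without heterozygous 3 or without wild type 3.

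At 1455342_at the order was turned round. The heterozygous brains measured 322, 442.6 and 331, and the wild-type brains 519.5, 474 and 487. All heterozygous values lay below all wild-type values, with heterozygous 2 closest to the wild-type range. The ratio was 0.741 (log2 difference -0.43, SE 0.12). The third tested probe set, 1439274_at, measured 24.2, 27.3 and 34.6 in heterozygous and 34.8, 28.9 and 36.5 in wild-type brains. Its genotypes overlapped, and its log2 difference of -0.15 was smaller than its SE of 0.18. Thus 2 of the 3 tested Prune2 probe sets had genotypes that did not overlap, 1 in each direction, where 10.2% of all tested probe sets had none; the contrast chose the gene, so nothing is read from that count.

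**Figure D1:**
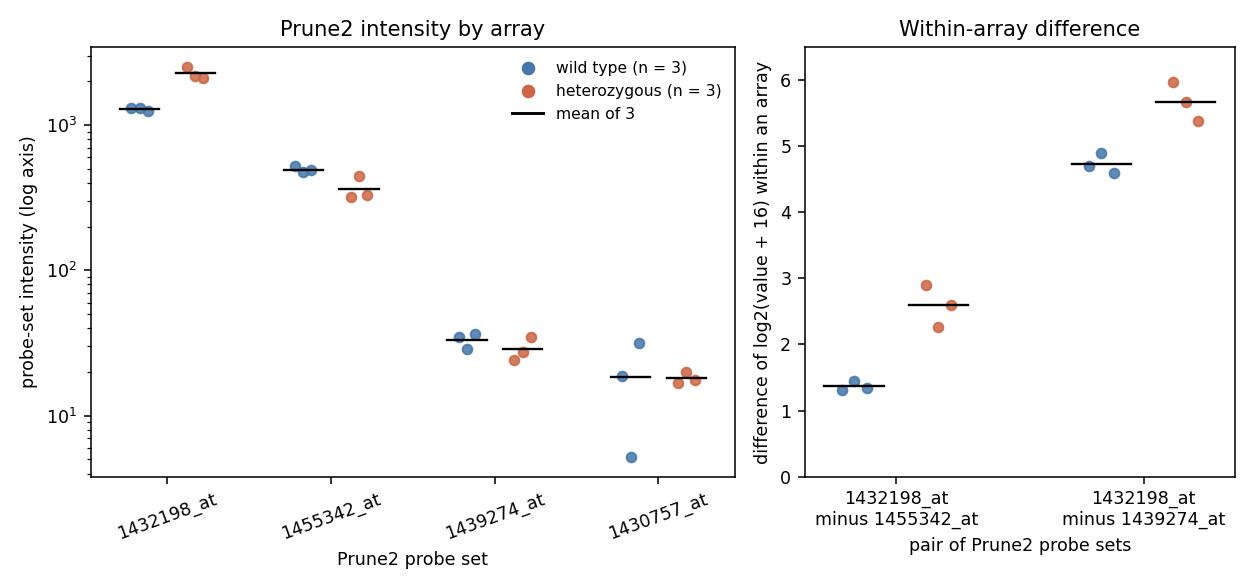
Left, intensity (log axis) of the 4 Prune2 probe sets on each of the 6 arrays, with bars at the mean of 3. Right, the difference of log2(value + 16) between 1432198_at and another Prune2 probe set on the same array; every heterozygous point lies above every wild-type point in both pairs.

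Setting probe sets of the same array against each other removes whatever an array's overall brightness adds to both. The log2 value of 1432198_at minus that of 1455342_at was 2.91, 2.26 and 2.61 in heterozygous brains. In wild-type brains it was 1.31, 1.45 and 1.34. The heterozygous brains were again the more scattered, and the mean difference between genotypes was 1.22 (SE 0.19, n = 3 each), a 2.34-fold change in the ratio of the 2 signals. Against 1439274_at the same quantity was 5.98, 5.67 and 5.38 in heterozygous and 4.71, 4.89 and 4.60 in wild-type brains, a genotype difference of 0.94 (SE 0.19). Single arrays left out in turn moved the first of these between 1.07 and 1.39 and the second between 0.79 and 1.09. Across the 6 arrays the values of 1432198_at and 1455342_at correlated at -0.85. With each genotype's mean subtracted it was -0.35. Both are descriptions over points that share the same 6 arrays.

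What Prune2 shows as a gene therefore turned on how its probe sets were combined. The brightest probe set gave a log2 difference of 0.79 and the sum of the 3 tested intensities gave 0.54. The mean of the 3 log2 values gave 0.07, and the median probe set gave -0.15.

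Opposite signs between probe sets of 1 gene were common on these arrays. Prune2 was chosen for probe sets that moved in opposite directions, so its place among the genes is a description from which nothing is read. Of 6176 genes with at least 2 tested probe sets, 58.3% had differences of both signs, and the median gap between a gene's highest and lowest log2 difference was 0.19. A gap of at least the 1.22 of Prune2 was seen in 13 of these genes, Prune2 included (0.210%). Among the 1556 genes with exactly 3 tested probe sets the median gap was 0.23, and 5 genes (0.321%) reached that of Prune2. A gene with 1 probe set wholly higher and another wholly lower in heterozygous brains, as in Prune2, was found 70 times among the 6176 (1.13%). The other BCH genes with several tested probe sets had narrow gaps, 0.12 for Atcay over 3 probe sets and 0.14 for Bnip2 over 4.

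**Figure D2:**
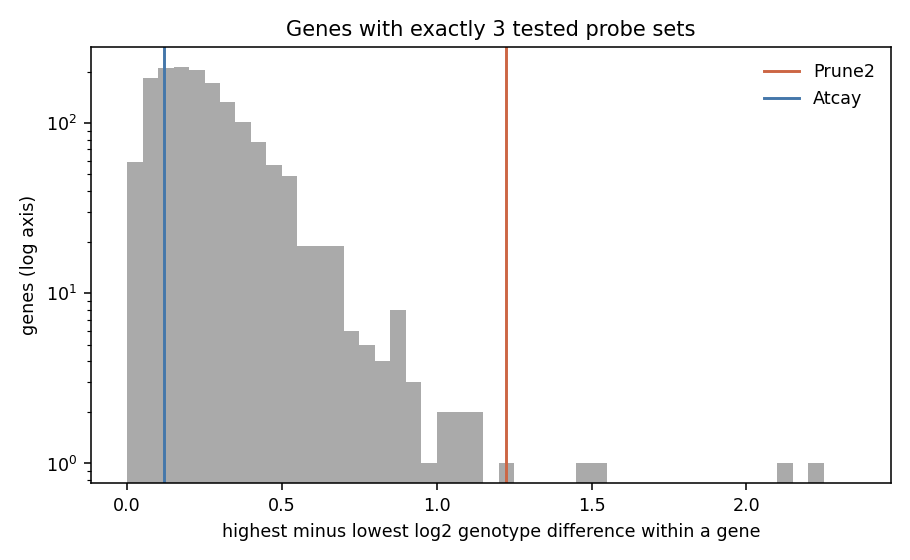
Number of genes (log axis) by the gap between the highest and lowest log2 genotype difference of their probe sets, for the 1556 genes with exactly 3 tested probe sets. Atcay, at 0.12, lies among the bulk of genes, and Prune2, at 1.22, among the 5 with the widest gaps.

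None of the 8 tested probe sets of Prune1, Bnip2 and Atcay was called by limma, where 0.0148% of all tested probe sets were. None had an unadjusted p below 0.05 (4.83% of all tested) or genotypes that did not overlap (10.2% of all tested). Their log2 differences ran from -0.08 to 0.08, 4 higher and 4 lower in sign, with a median of 0.01 beside 0.01 over all tested probe sets. The 95% confidence intervals, as ratios of heterozygous to wild type, together spanned 0.752 to 1.26.

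Prune1, the phosphoesterase relative, measured 171, 174.6 and 169 in heterozygous and 169.9, 154 and 159.6 in wild-type brains at 1434138_at. The ranges touched, with wild type 1 between the heterozygous values. The log2 difference was 0.08 (95% confidence interval -0.15 to 0.31, limma adjusted p = 0.966), and the two-sided exact permutation test gave p = 0.2, where 0.1 is the smallest that 3 against 3 brains allow. This was also the steadiest of the 11 tested members: its within-genotype SD of 0.05 (log2) was lower than that of all but 2.18% of tested probe sets, and the median over all of them was 0.17. The other Prune1 probe sets, 1433281_at and 1457768_at, were dim, with means of 13.9 and 8.75.

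For Bnip2, 3 probe sets had similar signals from array to array and 1 was dimmer. At 1422491_a_at the heterozygous brains measured 142.1, 149.6 and 164.5 and the wild-type brains 152, 168.4 and 165.9. At 1453993_a_at they measured 144.8, 136 and 157.8 against 129.3, 149.7 and 142.8. At both, the values of the genotypes were interleaved. The log2 differences were -0.08 (95% confidence interval -0.33 to 0.16) and 0.05 (-0.21 to 0.31), with limma adjusted p of 0.966 and 0.978. At 1422490_at, with group means of 150.5 and 153.5, the log2 difference was -0.02 (-0.28 to 0.24), and at 1441989_at, with 60.4 and 63.0, it was -0.04 (-0.41 to 0.33). Bnip2 1441989_at was the most scattered tested member, with a within-genotype SD of 0.20. The signs of the small Bnip2 differences at 1422490_at, 1453993_a_at and 1441989_at turned when single arrays were left out. The remaining 4 Bnip2 probe sets had means of 1.05 to 4.06, far below the dim limit.

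Atcay, the neuronal BCH gene, was measured by 3 probe sets above the dim limit. At 1434466_at the heterozygous brains measured 415, 331 and 341 and the wild-type brains 373, 367 and 386. The wild-type brains were close together there (SD 9.52) and sat inside the heterozygous range (SD 46.1, n = 3 each). At 1454972_at the values were 258, 337 and 314 against 253, 302 and 309.7, and at 1434467_at they were 319, 286 and 288 against 268, 284 and 315. Here too the genotypes overlapped. The log2 differences of the 3 were -0.06 (95% confidence interval -0.28 to 0.17), 0.07 (-0.20 to 0.33) and 0.04 (-0.18 to 0.26), with limma adjusted p of 0.9745, 0.9745 and 0.981. Heterozygous 1 was the highest array at 1434466_at and among the lowest 2 at 1454972_at, so probe sets of Atcay also ordered the arrays differently, without a shift between genotypes that passed the test. Each of the 3 signs turned with 1 array or another left out.

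Bnipl, measured only by 1420683_at, was at 2.96, 4.49 and 7.05 in heterozygous and 1.26, 1.78 and 3.11 in wild-type brains. All 6 values are below the dim limit and were not tested, so no level or difference is given for it.

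**Figure D3:**
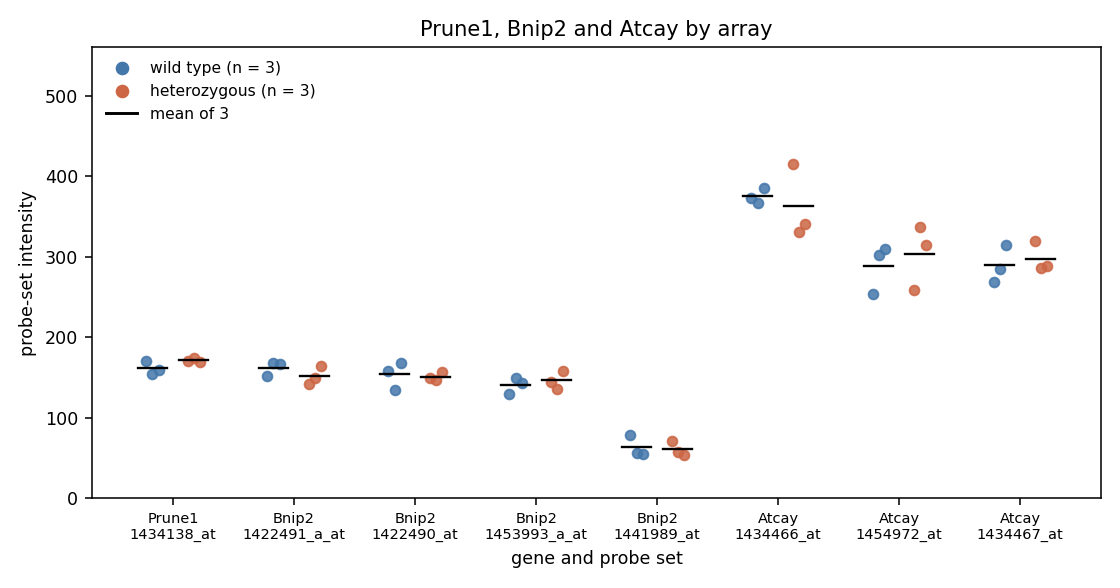
Intensity of the 8 tested probe sets of Prune1, Bnip2 and Atcay on each of the 6 arrays, with bars at the mean of 3. The points of the genotypes overlap at each probe set.

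**Figure D4:**
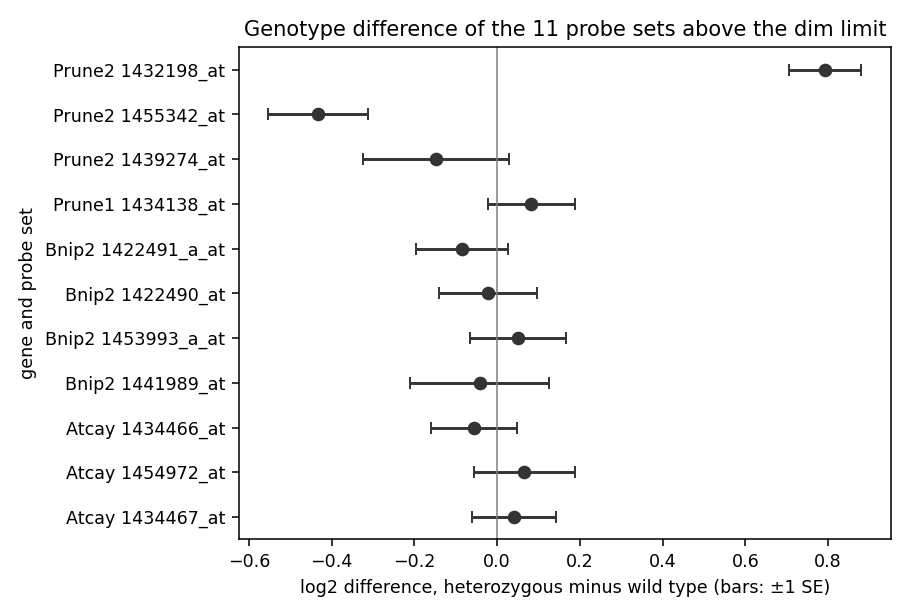
Log2 difference, heterozygous minus wild type, with bars of 1 SE, for the 11 member probe sets above the dim limit. Prune2 1432198_at lies at 0.79 and 1455342_at at -0.43, and the 8 probe sets of the relatives lie between -0.08 and 0.08.

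Genes that belong to the biochemistry of the family were taken by name, each represented by its brightest tested probe set. Of 86 such genes in 5 lists, 74 were measured. None was called by limma, against 0.00768% of all 13024 genes. At an unadjusted p below 0.05, 2 were found, both lower (2.70%, beside 4.38% of all genes). That number was 1 without heterozygous 1, 4 without heterozygous 3 and 1 with the median probe set of each gene. With all 6 arrays the genotypes did not overlap for 7 (9.46%, beside 10.1%). Single genes here rest on 1 probe set each. Tested probe sets of Trio, Kif5b, Slc1a3 and Got2, named below, had log2 differences of both signs. That held for 58.3% of all genes with at least 2 tested probe sets.

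The list of other BCH-like and CRAL-TRIO domain genes, the wider fold to which the BCH domain belongs, had 20 measured members. There were 10 higher and 10 lower in sign, with a median log2 difference of -0.01, beside 0.01 over all genes, and none below an unadjusted p of 0.05. At its ends stood Plekhg4, at 0.28 (SE 0.18), and Gdap2, at 0.11 (SE 0.10), and on the lower side Trio, a guanine nucleotide exchange factor, at -0.20 (SE 0.10), and Ttpa, the tocopherol transfer protein, at -0.29 (SE 0.16). The 3 heterozygous values of Trio were all under the 3 wild-type values, with means of 497 and 572 and a limma adjusted p of 0.956.

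Reported binding partners of the family had 19 measured members, 13 higher and 6 lower in sign (median 0.04), none below an unadjusted p of 0.05. Boc, a cell-surface partner of Cdon, which recruits Bnip2 in muscle precursors, was highest at 0.32 (SE 0.15), from 76.0 to 98.4, with genotypes that did not overlap. Fgfr1, a growth factor receptor, lay at 0.19 (SE 0.12). Kif5b, a kinesin motor, was at -0.16 (SE 0.16) and Rhoa, the GTPase, at -0.12 (SE 0.09). Each of these 4 had a limma adjusted p between 0.956 and 0.961.

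Of the 5 measured kinesin-1 subunits, the motor that caytaxin can bind, 1 was higher and 4 lower in sign (median -0.02), from Kif5a at 0.07 (SE 0.10) through Kif5c at 0.00 (SE 0.08) and Klc4 at -0.09 (SE 0.11) to Kif5b at -0.16.

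In the glutamate and glutamine cycle, 5 of 12 measured genes were higher and 7 lower in sign (median -0.04). Both genes below an unadjusted p of 0.05 were in this list (16.7% of its measured genes, beside 4.38% of all genes). The genotypes did not overlap for 1 gene in each direction (16.7%, beside 10.1% of all genes). Slc17a7, a vesicular glutamate transporter, was at -0.27 (SE 0.09), from 645 to 533, with every heterozygous value below every wild-type value. Slc1a3, an astrocyte glutamate transporter, was at -0.27 (SE 0.12), from 1245 to 1026. Neither was called (limma adjusted p = 0.956 for both). Got2 and Got1, the aspartate aminotransferases, were highest at 0.18 (SE 0.09) and 0.12 (SE 0.10). Every heterozygous value of Got2 lay above every wild-type value, while the genotypes overlapped for Got1.

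The genes on either side of Prune2 were described by the order of protein-coding genes in RefSeq. Of 20 genes, 10 on each side, 15 were tested; 11 were lower and 4 higher in sign, with a median log2 difference of -0.15 beside 0.01 over all genes. None was called by limma, and 1, Rorb, had an unadjusted p below 0.05 (6.67%, beside 4.38% of all genes). The genotypes did not overlap for 7 of the 15 (46.7%), where this held for 10.1% of all genes.

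The nearest tested gene on one side was Vps13a, which encodes a lipid transfer protein, with 218.5, 234.5 and 239.6 in heterozygous and 245, 239.7 and 243 in wild-type brains. The values were separated, but by a margin far smaller than their scatter (log2 difference -0.07, SE 0.10). Next on that side was Gnaq, a G protein subunit, at -0.06 (SE 0.11). On the other side Gcnt1, a glycosyltransferase, was at -0.23 (SE 0.19). Rfk, riboflavin kinase, measured 498.5, 554 and 515 in heterozygous and 574, 619 and 572 in wild-type brains, all lower, at -0.17 (SE 0.09). Among the further genes without overlap, which were singled out after their values were seen, Ostf1 was at -0.17, Carnmt1 at -0.23, Cep78 at 0.34, Nmrk1 at 0.31 and Rorb, a nuclear receptor, at 0.24 (SE 0.11).

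The choice of probe set bears on these neighbours. Over all 32 tested probe sets of the same genes, 10 were higher and 22 lower in sign, the median was -0.06, and the genotypes did not overlap for 8 (25.0%, beside 10.2% of all tested probe sets). Rfk lay at 0.00 and 0.07 by its other probe sets, and Rorb at -0.07 and 0.01. For Vps13a the others were at -0.30, 0.09 and -0.05.

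**Figure D5:**
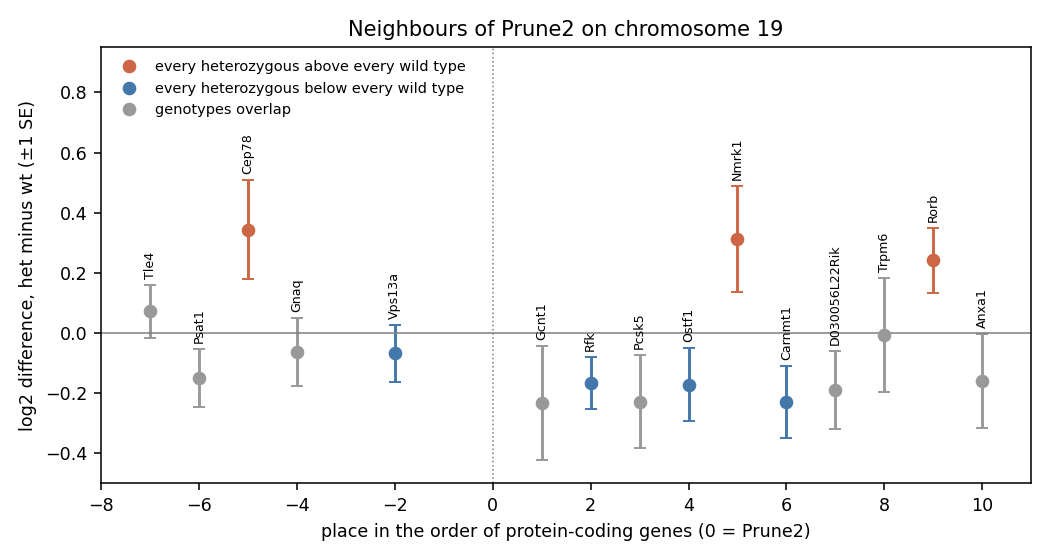
Log2 difference, heterozygous minus wild type, with bars of 1 SE, of the 15 tested protein-coding neighbours of Prune2 by their place in the gene order (brightest probe set). Of the 15, 11 lie below 0, and the genotypes do not overlap for 7, shown in colour.

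Around Prune1 and Bnipl, which have no protein-coding gene between them, the tested genes beside the pair were Cdc42se1, a small effector of Cdc42, at -0.09 (SE 0.10) and Mindy1, a deubiquitinase, at 0.04 (SE 0.11). Their genotypes overlapped, as at Prune1 itself.

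The probe sets whose 6 values ran most like Prune2 1432198_at were sought among 23470 tested probe sets of other genes, each with 1 gene. Unc13a, which primes synaptic vesicles, was closest (Pearson r = 0.99 over 6 arrays), with 321, 309 and 281 in heterozygous and 201, 206 and 199 in wild-type brains. It was followed by Mipep and Timm44, which serve protein import into mitochondria, Adcy3, an adenylyl cyclase, and Pabpn1, a nuclear poly(A)-binding protein, each with r of 0.98 to 0.99. Their log2 differences were 0.55, 0.17, 0.31, 0.52 and 0.36. Within genotypes, with each genotype's mean subtracted, r was 0.84, 0.78, 0.90, 0.66 and 0.48. These probe sets were picked for the highest r over the same 6 arrays, so nothing is read from their r within genotypes. The most opposed were Lama3, a laminin chain, Zfp597 and the kinesin gene Kif1b, each at -0.99 and with log2 differences of -0.49, -0.48 and -0.39. Each of the 8 is 1 probe set of its gene. Another Adcy3 probe set was wholly lower in heterozygous brains. Tested probe sets of Timm44 and Kif1b also had differences of both signs, while those of Pabpn1 and Zfp597 had 1 sign. In all 8 the genotypes did not overlap, beside 10.2% of all tested probe sets. They were picked for following a probe set whose genotypes lay apart, so nothing is read from that count. Of the probe sets compared, 47 had r above 0.95 and 52 had r below -0.95. For the relatives, r over the 6 arrays was 0.71 for Prune1, -0.63 to 0.26 for Bnip2 and -0.09 to 0.32 for Atcay. Within genotypes it was 0.02 for Prune1 and -0.73 (1422491_a_at) to 0.65 (1441989_at) for Bnip2. For Atcay it was -0.76 (1454972_at) to 0.85 (1434466_at). Over 6 arrays with each genotype's mean subtracted, these are descriptions from which nothing is read.

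Measures of RNA and tissue were set beside the Prune2 values. The ratio of the 3′ to the 5′ Gapdh control probe set was 0.747 to 0.755 in heterozygous and 0.713 to 0.731 in wild-type brains, without overlap. The same ratio for Actb, 1.60 to 1.72 and 1.64 to 1.70, overlapped. The summed signal of 4 cortex and hippocampus markers was 2946 to 3662 in heterozygous and 2646 to 2852 in wild-type brains, without overlap. That sum was carried by Camk2a, a synaptic kinase, at 0.47 (SE 0.12), with Neurod6 at -0.27 (SE 0.11), Prox1 at -0.01 and Wfs1 at 0.00. Camk2a is given here by 1 of its 5 tested probe sets. Their log2 differences had both signs, with a gap of 0.59 between highest and lowest. The part of the Gapdh ratio and of these markers in the Prune2 values was not tested.

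The other marker sums overlapped between genotypes. All 8 neuronal markers were higher in sign, with sums of 29954 to 34829 in heterozygous and 30096 to 31148 in wild-type brains. Of all 13024 genes, 6769 were higher in sign. The neuronal log2 differences ran from 0.005 (Rbfox3, SE 0.10) to 0.12 (Stmn2, SE 0.09). Other sets also had 1 sign throughout. All 5 cerebellar markers were higher, while all 6 pituitary and all 3 oligodendrocyte precursor markers were lower. Nothing is read from these counts of signs. The 5 cerebellar markers summed to 8558 to 9424 and 8052 to 8997, and the 5 olfactory bulb markers to 660.4 to 888 and 672.5 to 757. Within these sums the genotypes did not overlap for single markers, as they did not for 10.1% of all genes. These were Fat2 at 0.35 (SE 0.13) in the cerebellar set, and Doc2g at 0.29 (SE 0.14) and Omp at -0.54 (SE 0.17) in the olfactory bulb set. None of them was called (limma adjusted p = 0.956 for each). The pituitary sum ranged most, from 185 to 6709 in heterozygous and from 791 to 21234 in wild-type brains.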

How the data were processed

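Each brain was hybridised to 1 Affymetrix array after labelling from a T7-oligo(dT) primer, per the labels' protocols. The deposited intensities are linear probe-set values that the authors had scaled to a common level. The labels do not name the software that summarised the probes. Of 45101 probe sets, 64 controls were set apart, and the platform annotation gave 1 gene for 34945 and several for 932. Current symbols came from RefSeq (GRCm38.p6) by Entrez identifier (34741 matched), which also gave the gene order.

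Values were transformed as log2(value + 16), which understates changes of dim probe sets. Probe sets at or below the 40th percentile of mean log2 value were left out (18015), and 27022 were tested with limma 3.58.1 in R 4.3.3 (lmFit, eBayes with intensity trend, no covariate, two-sided, Benjamini-Hochberg over all, threshold 0.05). Precision is limited by having 3 arrays per genotype. The fit was checked on simulated data. Single values of the relatives were compared by exact permutation.

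Named were all member probe sets, both Pphln1 probe sets, the 2 highest and 2 lowest genes of each list by moderated t, the 2 nearest tested genes on each side of Prune2, those beside Prune1 and Bnipl, and the 5 most and 3 least like probe sets. The members and lists were chosen with earlier results of these data known. As alternatives, arrays were quantile normalized or centred on their medians, and pseudocounts of 1 and 64, other dim filters, eBayes without trend, a replicate block, another choice of probe set and the loss of each array in turn were tried. A planned comparison of the members' proteins was not run. The values of 1 of the 5 lists, counted in the totals, are not reported here. Other ways of combining the Prune2 probe sets, and the alternatives for its neighbours, were added after seeing the data.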

Additional observations from a re-analysis of the deposited data

How the results depend on the processing

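Both within-gene differences of Prune2 kept their sign and moved by less than the spread between brains under the alternatives run. There were 14 and 13 of these, since 1439274_at has none with the dim filter at the 60th percentile. Median centring, the dim filters, eBayes without trend and the replicate block cannot change a difference taken within an array. With genotypes that did not overlap, leaving out 1 array could not turn the sign. Prune2 was chosen for these moves, so nothing is read from the kept signs. With single arrays left out the within-gene differences ranged from 1.07 to 1.39 and from 0.79 to 1.09. The Prune2 gene-level log2 difference was -0.15 as the median of the probe sets, 0.071 as the mean of their log2 values and 0.54 as the sum of intensities, against 0.79 for the brightest. The neighbours' median of -0.15 ranged from -0.18 to -0.09, and from -0.15 to -0.09 with single arrays left out. The number of probe sets called, 4, was 1 without the dim filter, 1 without the trend and 1 to 14 with single arrays left out (14 without heterozygous 1, 1 without heterozygous 2). The 2 list genes below an unadjusted p of 0.05 became 1 with quantile normalization, pseudocount 1, the filter at the 60th percentile, no trend or the median probe set, and ranged from 1 to 4 when an array was left out.

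No relative was called under any alternative (lowest limma adjusted p = 0.895). With single arrays left out the log2 difference spanned 0 for Bnip2 1422490_at (-0.11 to 0.042), 1453993_a_at (-0.0023 to 0.10) and 1441989_at (-0.13 to 0.091), and for Atcay 1434466_at (-0.15 to 0.0039), 1454972_at (-0.021 to 0.17) and 1434467_at (-0.0086 to 0.10). With the replicate number as a replicate block the list genes numbered 4. The numbers do not show a pairing: same-numbered brains deviated together at 0.08, 0.20 and -0.02, and the first heterozygous brain has no number in its title. The cause of these changes was not tested. Only 3 brains per genotype, and signals near the dim limit, limit what could be seen.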
